A study of Homo sapiens
Mus musculus with 2 samples.

Results

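The genes described here are 9 mouse histone genes, 5 for linker histones (Hist1h1a, Hist1h1b, Hist1h1c, Hist1h1d and Hist1h1e), 2 for core histones (Hist1h2bc and Hist2h2ac) and 2 for variants of H2A (H2afz and H2afx). They are 9 of the 29259 genes, human and mouse together, that had a count in either of 2 Drop-seq libraries, and all 9 had counts in both. The 9 were chosen by name with their levels in these libraries already known, and Hist2h2ac was selected on its low ratio between the libraries. That ratio is therefore given as a description, without a test.

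The libraries were made from 1 mixture, in equal parts, of 4 established lymphocyte lines: Jurkat and TALL-104 (human T cells), EL4 (mouse T cells) and IVA12 (mouse B cells). Drop-seq encloses single cells with barcoded beads in droplets and counts each captured mRNA molecule by its UMI (unique molecular identifier). The droplet device was loaded with 150 cells per µl for 1 library and with 300 cells per µl for the other, so neither concentration had a replicate. The labels name no treatment of the cells.

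Linker histones bind the DNA that enters and leaves the nucleosome, and H2A and H2B are part of the histone core around which the DNA is wound. Most genes of both kinds are transcribed while DNA is replicated, and their mRNA ends in a stem-loop and not in a poly(A) tail, which is the part that the oligo(dT) primers of the beads bind. H2A.Z, encoded by H2afz, is made outside replication too and from polyadenylated mRNA, and H2A.X, encoded by H2afx, is the H2A variant phosphorylated around broken DNA.

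Mouse cells were barcodes with at least 1000 UMIs of which at least 90% were mouse. They numbered 85 at 150 cells per µl, with a median of 12164 UMIs, and 685 at 300 cells per µl, with a median of 7211 UMIs. They were split into 2 classes by their sign on the first principal component of their expression, computed without the 9 histone genes. Whether the cells form 2 separate groups along it was not tested. The larger class, mouse A, held 50 and 389 cells, and the other, mouse B, held 35 and 296 cells. Names and markers of mouse genes beyond the 9 were not used here, so neither class was assigned to EL4 or IVA12. No barcode sequence of a cell occurred in both libraries. Levels are given as CPM, here the UMIs of a gene per 1000000 mouse UMIs of the same cells, and intervals are at 95% and cover counting error only. Histone genes have near-identical copies, so reads that fit several copies could have been lost or credited to another copy, and the level of each gene is uncertain to that extent. CPM values were compared for 1 gene at a time, since they do not rank different genes.

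The linker histone genes divided by cell class. Hist1h1a, which encodes the H1a subtype, was found almost entirely in mouse A. Its level there was 160 CPM at 150 cells per µl (96 UMIs) and 152 CPM at 300 cells per µl (484 UMIs). In mouse B it was 15.2 CPM (7 UMIs) and 6.42 CPM (15 UMIs). The level in mouse A was thus 10.5-fold higher in the first library and 23.7-fold higher in the second.

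Hist1h1b, which encodes H1b, was also higher in mouse A, at 1909 and 1401 CPM against 853 and 405 CPM in mouse B. The difference was 2.24-fold at 150 cells per µl and 3.46-fold at 300 cells per µl. Hist1h1c (H1c) was higher in mouse B, at 311 and 194 CPM against 135 and 121 CPM, which is 2.3-fold and 1.61-fold. Hist1h1d (H1d) was 2.09-fold higher in mouse B at 150 cells per µl, with 282 CPM against 135 CPM, and 1.18-fold higher at 300 cells per µl, with 146 CPM against 125 CPM. Hist1h1e (H1e) had no common direction. Its level was 630 CPM in mouse A and 864 CPM in mouse B at 150 cells per µl, but 636 CPM and 544 CPM at 300 cells per µl.

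Among the core histones, Hist1h2bc, an H2B gene, was close to absent from mouse A. It had 11 UMIs in the 50 cells of mouse A at 150 cells per µl (18.3 CPM) and 12 UMIs in the 389 cells at 300 cells per µl (3.77 CPM). Mouse B held 183 UMIs (397 CPM) and 367 UMIs (157 CPM) of it. The level in mouse B was 21.7-fold higher in the first library and 41.7-fold higher in the second. Hist2h2ac, an H2A gene, stood at 162 CPM in mouse A against 117 CPM in mouse B at 150 cells per µl and at 48.4 CPM against 24.0 CPM at 300 cells per µl, or 1.38-fold and 2.02-fold. The log2 difference at 150 cells per µl, mouse B over mouse A, had an interval of −0.97 to 0.03, which includes 0.

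The variants also differed by class. H2afz was higher in mouse A in both libraries, at 2602 CPM against 1833 CPM and at 1699 CPM against 1152 CPM, which is 1.42-fold and 1.48-fold. H2afx was higher in mouse B in both, at 258 CPM against 66.7 CPM and at 212 CPM against 102.5 CPM, which is 3.88-fold and 2.07-fold.

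**Figure D1:**
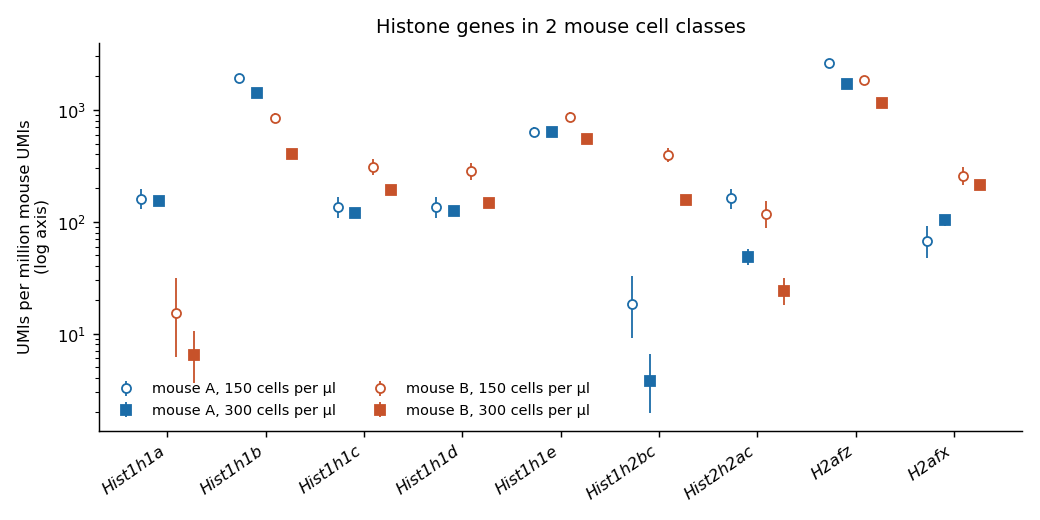
The plot gives the level of each histone gene (UMIs per 1000000 mouse UMIs, log axis) in both mouse classes (blue, mouse A; orange, mouse B) and both libraries (open circles, 150 cells per µl; filled squares, 300 cells per µl), with 95% Poisson intervals. Hist1h1a is at 160 and 152 in mouse A against 15.2 and 6.42 in mouse B, and Hist1h2bc is at 397 and 157 in mouse B against 18.3 and 3.77 in mouse A.

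The class difference was fitted over 8928 mouse genes with the quasi-likelihood test of edgeR, on 4 sums of UMIs, 1 per library and class, with the library as a block. Of all genes tested, 27.8% passed an adjusted p of 0.05 with the higher level in mouse B, and 29.1% with the higher level in mouse A, and 8 of the 9 histone genes were called, 4 in each direction. With 56.8% of all genes called, a call by itself sets a histone gene apart little. The median absolute log2 difference was 0.82 for the 9 genes and 0.61 for all genes tested.

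The fitted log2 difference, mouse B over mouse A, was −4.27 ± 0.27 (SE) for Hist1h1a (adjusted p = 3.3e-55, edgeR) and −1.55 ± 0.08 for Hist1h1b (7.6e-73). It was 0.82 ± 0.14 for Hist1h1c (1.0e-08) and 0.47 ± 0.14 for Hist1h1d (0.0020). For Hist1h1e it was 0.02 ± 0.09, which was not called (adjusted p = 0.89, edgeR). Hist1h2bc had 4.94 ± 0.24 (2.2e-89), Hist2h2ac −0.80 ± 0.20 (0.00027), H2afz −0.58 ± 0.07 (1.2e-14) and H2afx 1.25 ± 0.15 (1.1e-16). The p-values measure no spread between cultures, since both libraries came from the same cell mixture. With 4 sums and the library as a block, they rest on a dispersion shared across genes more than on each gene's own spread. The values of single libraries are ratios of CPM without the TMM scaling of the fit, so their distance from it includes that scaling. Most lay further from the fit than its SE, such as −1.16 and −1.79 for Hist1h1b and 0.46 and −0.23 for Hist1h1e. Those of H2afz were −0.51 and −0.56. The classes were formed from other genes of the same cells. The calls of Hist1h1d and Hist2h2ac were lost with DESeq2 (adjusted p = 0.28 and 0.27) and without the library block (adjusted p = 0.097 and 0.35, edgeR), and that of H2afz without the block (0.17).

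The share of cells with a UMI of each gene was compared after each cell had been thinned to 2000 UMIs. This left out 7 and 47 cells of mouse A and 5 and 62 cells of mouse B, at 150 and 300 cells per µl, as too shallow. Human cells served as the background. The source of the mouse UMIs in them (free RNA, droplets shared with mouse cells, or human histone reads aligned to a mouse gene) was not tested. H2afz was found in nearly every cell, in 97.7% and 93.9% of mouse A and in 90% and 85.0% of mouse B, against 8.54% and 6.74% of human cells. The unthinned shares of H2afz were 98.0% and 97.4% of mouse A (median 10882 and 7474 UMIs), 88.6% and 91.6% of mouse B (13629 and 6587.5 UMIs), and 16.1% and 15.1% of human cells (6383 and 3713.5 UMIs).

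Hist1h1b and Hist1h1e followed. The other linker genes and H2afx were found in fewer thinned cells, in 11.6% to 19.3% of mouse A for Hist1h1c, Hist1h1d and H2afx and in 24.8% to 43.3% of mouse B. Hist1h1b was found in 88.4% and 69.0% of mouse A, in 53.3% and 31.6% of mouse B and in 4.88% and 7.80% of human cells. Unthinned, these shares were 88.0% and 80.5%, 74.3% and 54.7%, and 12.6% and 14.5%. Hist1h1e was found in 67.4% and 55.6% of mouse A, in 56.7% and 48.7% of mouse B and in 4.88% and 3.90% of human cells. Its unthinned shares were 86.0% and 73.3%, 85.7% and 64.2%, and 10.3% and 8.81%.

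Hist1h1a and Hist1h2bc were each rare in 1 class. Hist1h1a was found in 18.6% and 23.4% of mouse A. In mouse B it was found in 0 of 30 and 0 of 234 thinned cells, which allows shares of up to 10% and 1.28% by the limit of 3 counts (exact binomial upper bounds 11.6% and 1.56%), against 1.22% and 1.42% of human cells. Before thinning it was found in 4 of 35 and 7 of 296 cells of mouse B and in 2 of 87 and 4 of 318 human cells. Hist1h2bc was found in 36.7% and 20.1% of mouse B but in 1 of 43 and 3 of 342 cells of mouse A, with 0 of 82 and 0 of 282 in human cells. The last 2 counts allow shares of up to 3.66% and 1.06% by the same limit. The exact binomial intervals were 0.059% to 12.3% and 0.18% to 2.54% in mouse A, with upper bounds of 4.40% and 1.3% in human cells. Before thinning it was found in 9 of 50 and 10 of 389 cells of mouse A and in 1 of 87 and 1 of 318 human cells.

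Hist2h2ac was found in 30.2% (95% exact binomial interval 17.2% to 46.1%) and 10.2% (7.23% to 13.9%) of mouse A. In mouse B it was found in 20.0% (7.71% to 38.6%) and 4.27% (2.07% to 7.72%). No human cell held a UMI of it, with 0 of 82 and 0 of 282 after thinning and none before. The human cells held only 10594 and 49990 mouse UMIs, so the counts of 0 before thinning allow up to 348 and 73.8 CPM. Both limits lie above its level in either mouse class of the same library. The unthinned shares were 64.0% and 25.2% of mouse A and 45.7% and 12.5% of mouse B. In thinned cells the share was lower at 300 cells per µl in both classes, which describes the value the gene was selected on.

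**Figure D2:**
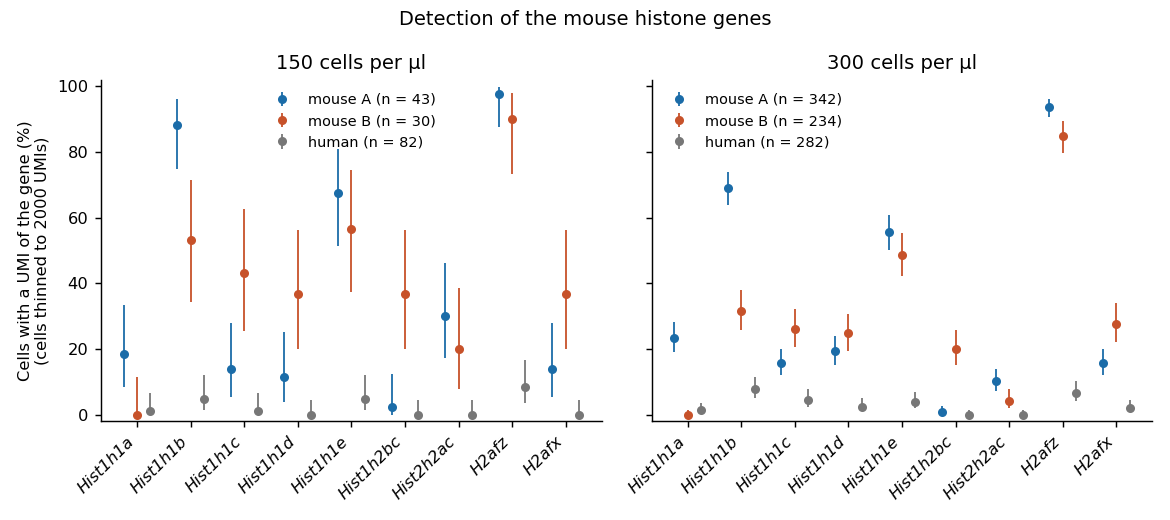
The plot gives the percent of cells with at least 1 UMI of each gene after thinning to 2000 UMIs, for mouse A (blue), mouse B (orange) and human cells (grey), with exact binomial intervals (95%) and 1 panel per library. H2afz is found in 85.0% to 97.7% of mouse cells, and Hist2h2ac in 30.2% and 20.0% at 150 cells per µl but in 10.2% and 4.27% at 300 cells per µl.

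Between the libraries, Hist2h2ac had the lowest ratio of the 9 genes over all mouse cells. Its level was 142 CPM at 150 cells per µl (151 UMIs) and 38.1 CPM at 300 cells per µl (210 UMIs), a log2 ratio of −1.90 (−2.21 to −1.59). Of 7071 mouse genes with at least 100 UMIs over both libraries, 6 had a lower ratio. The gene was low in both classes, with a log2 ratio of −1.74 (−2.12 to −1.36) in mouse A and −2.29 (−2.86 to −1.72) in mouse B. Among cells with at least 10000 UMIs, its level was 181 CPM against 54.8 CPM in mouse A and 118 CPM against 24.2 CPM in mouse B, with log2 ratios of −1.73 and −2.28. In cells of mouse A with 2000 to under 10000 UMIs it rested on 6 UMIs at 150 cells per µl, and its log2 ratio of −0.59 (−1.79 to 0.91) could not be told from 0.

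Hist1h2bc was next, at 183 CPM (194 UMIs) and 68.7 CPM (379 UMIs), a log2 ratio of −1.41 (−1.67 to −1.16). In mouse B, where nearly all of it was found, the log2 ratio was −1.34 (−1.60 to −1.07). In mouse A, where it had too few UMIs for the counts below (11 and 12), the log2 ratio was −2.28 (−3.59 to −0.96). These 2 were the histone genes more than 2-fold lower at 300 cells per µl over all mouse cells, where 0.806% of all genes were. In mouse A, Hist2h2ac alone of the 8 histone genes with at least 100 UMIs was more than 2-fold lower, against 0.804% of all genes. In mouse B, 3 of 8 were, against 1.3% of all genes. No reading is drawn from these counts, since Hist2h2ac was selected on this ratio and the others were chosen with it known.

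The third of these in mouse B was Hist1h1b, with a log2 ratio of −1.08 (−1.25 to −0.90) there and −0.45 (−0.54 to −0.35) in mouse A. Other linker genes likewise had lower ratios in mouse B. Hist1h1d had −0.95 (−1.24 to −0.64) in mouse B and −0.12 (−0.47 to 0.25) in mouse A. Hist1h1c had −0.68 (−0.95 to −0.40) and −0.16 (−0.51 to 0.20), and Hist1h1e had −0.67 (−0.83 to −0.50) and 0.01 (−0.14 to 0.18), in the same order. Hist1h1a, measured with precision in mouse A alone, had −0.07 (−0.39 to 0.26). In cells of mouse A with 2000 to under 10000 UMIs, of which 14 were at 150 cells per µl, 3 linker genes had intervals above 0. These were Hist1h1b at 0.45 (0.13 to 0.78) on 86 UMIs at 150 cells per µl, Hist1h1e at 0.56 (0.07 to 1.09) on 35 UMIs and Hist1h1c at 1.77 (0.19 to 4.06) on 3 UMIs. Hist1h1a at 0.36 (−0.60 to 1.51) and Hist1h1d at 0.72 (−0.44 to 2.19) had intervals that include 0. The intervals leave out the spread between these few cells. With 1 library per concentration, whether the classes differ in these ratios was not tested.

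The variants differed from one another. H2afz had nearly the same ratio over all cells of both classes, −0.62 (−0.70 to −0.53) in mouse A and −0.67 (−0.78 to −0.56) in mouse B. In cells with 2000 to under 10000 UMIs its ratio was −0.62 (−0.81 to −0.43) in mouse A and −1.13 (−1.45 to −0.80) in mouse B. The latter rested on 86 UMIs in 7 cells at 150 cells per µl. H2afx was higher at 300 cells per µl in mouse A, with a log2 ratio of 0.62 (0.14 to 1.13), and its ratio in mouse B was −0.28 (−0.57 to 0.02), which turned to 0.03 when every cell was given the same weight. Over all mouse cells 9 of 9 histone genes had a log2 ratio below 0, H2afx by the least at −0.01, where 32.6% of all genes did. The median log2 ratio was −0.57 for the 9 genes and 0.16 for all genes. By class, 6 of 8 measured histone genes were below 0 in mouse A, where 35.6% of all genes were. Their median was −0.14 (all genes 0.14). In mouse B 8 of 8 were below 0, where 36.9% of all genes were, with a median of −0.81 (all genes 0.14). Hist2h2ac is in each of these counts, and the other genes were chosen with their levels known. No reading is therefore drawn from these counts. Scaling by TMM factors, which rest on the bulk of genes, moved every log2 ratio by −0.13 in mouse A and −0.14 in mouse B.

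Barcodes with 200 to 600 UMIs, below the limit for a cell, gave other ratios for several of these genes. Their mouse UMIs held 114 CPM of Hist2h2ac at 150 cells per µl (47 UMIs) and 75.6 CPM at 300 cells per µl (60 UMIs), a log2 ratio of −0.59 (−1.17 to −0.01). The value in these barcodes stands beside −1.74 and −2.29 in the cells of mouse A and mouse B, on which the gene was selected, and the gap was not tested. Hist1h2bc stood at 38.8 and 65.6 CPM there, a log2 ratio of 0.76 (−0.08 to 1.66). H2afz kept a ratio like that of the cells, −0.79 (−0.94 to −0.64). Hist1h1c was at 383 and 382 CPM in these barcodes, above its level over all mouse cells of 211 and 152 CPM, and H2afx had a log2 ratio of 1.06 (0.46 to 1.70). The part of such RNA in the ratios of the cells was not tested.

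**Figure D3:**
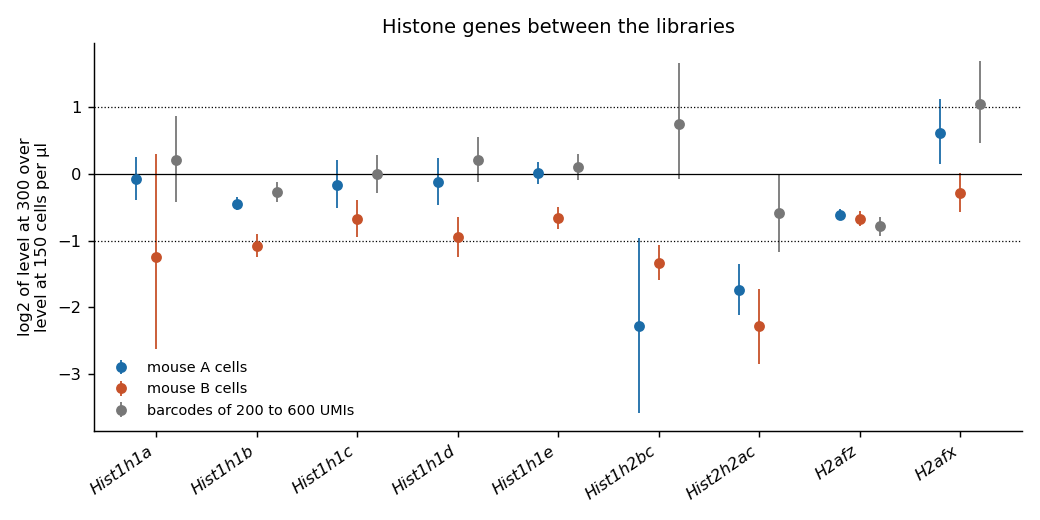
The plot gives the log2 ratio of the level at 300 over the level at 150 cells per µl for each gene, in mouse A (blue), mouse B (orange) and barcodes of 200 to 600 UMIs (grey), with intervals (95%) for counting error, a line at 0 and dotted lines at 2-fold. Hist2h2ac is at −1.74 and −2.29 in the cells and at −0.59 in the low barcodes, H2afz is between −0.62 and −0.79 in all 3, and H2afx is above 0 in mouse A and in the low barcodes.

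Within a class, Hist1h1b had the highest variance over mean of the linker genes. Its UMIs per 10000 of a cell's UMIs ranged from 0 to 54.9 in mouse A at 150 cells per µl (median 10.6) and from 0 to 70.7 at 300 cells per µl (median 8.64). In mouse B they ranged from 0 to 24.6 (median 3.75) and from 0 to 54.2 (median 1.07). In cells thinned to 2000 UMIs its variance was 3.48 and 3.21 times its mean in mouse A and 3.06 and 2.63 times in mouse B. A ratio of 1 is what counting alone gives, and the medians over all genes with a mean of at least 0.1 UMIs were 0.98, 1.03, 0.93 and 1.05. In each case at least 99.4% of these genes had a lower ratio than Hist1h1b. They were not matched to the histone genes in mean, and the ratio can rise with the mean. It therefore does not rank the variation of genes that differ in level.

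Hist1h1e had ratios of 1.52 and 2.01 in mouse A against 2.49 and 2.29 in mouse B, above 95.8% to 99.7% of genes. Hist1h1d was at 0.90 and 1.10 in mouse A and at 2.31 and 1.41 in mouse B. H2afz, in spite of its many UMIs, stayed between 1.01 and 1.36. These ratios were above those of 54.2% and 95.4% of genes in mouse A and of 83.6% and 82.7% in mouse B. Hist1h2bc, in mouse B, had 3.64 and 1.71, and the 10% of the cells of mouse B with the most UMIs of it held 58.5% and 66.8% of its UMIs. The corresponding 10% held 50.4% and 63.8% of the UMIs of Hist1h1b and 28.7% and 33.8% of those of H2afz. These shares mix depth with expression, since deep cells have more UMIs of every gene.

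**Figure D4:**
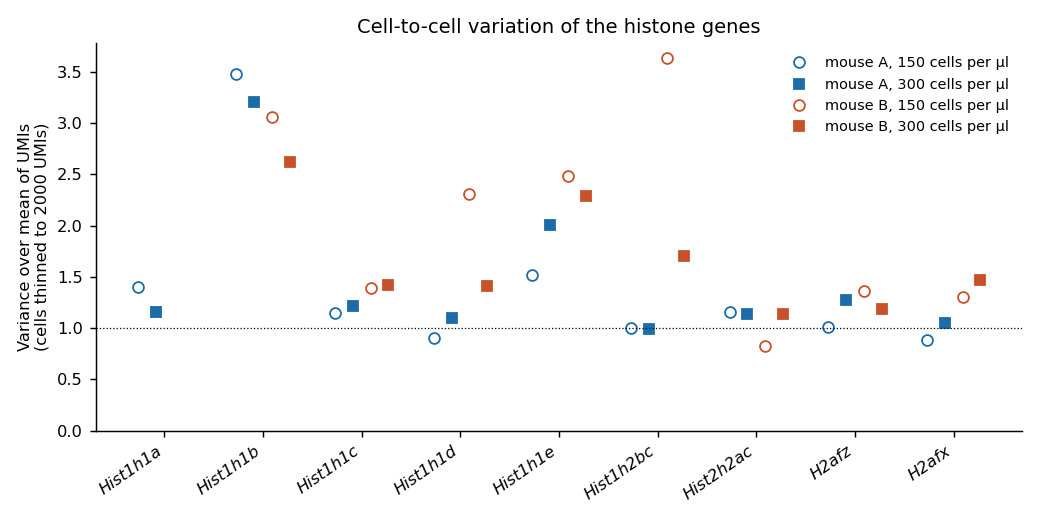
The plot gives the variance over the mean of the UMIs of each gene over cells thinned to 2000 UMIs, by class and library (symbols as in the plot of levels), with a dotted line at 1. Hist1h1b lies between 2.63 and 3.48 and H2afz between 1.01 and 1.36, while Hist1h1a has no value in mouse B, where no thinned cell held it.

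Some pairs of linker histone genes varied together from cell to cell and others did so weakly. The 5 linker genes summed to a median of 4 and 3 UMIs per thinned cell in mouse A and of 2.5 and 1 in mouse B, with upper quartiles of 9, 7, 6.75 and 3. None of the 5 was found in 6.98% and 19.9% of the cells of mouse A and in 16.7% and 29.9% of those of mouse B. Hist1h1b and Hist1h1e had a Pearson correlation over thinned cells of 0.55 (n = 43) and 0.54 (n = 342) in mouse A and of 0.55 (n = 30) and 0.43 (n = 234) in mouse B. The Spearman correlations were 0.60 and 0.59, and 0.42 and 0.37. Hist1h1d and Hist1h1e had Pearson correlations of 0.62 and 0.45 in mouse B, and of −0.07 and 0.23 in mouse A. Hist1h1d was held by 11 of 30 and 58 of 234 thinned cells of mouse B. In mouse A it was held by 5 of 43 and 66 of 342. Hist1h1c had low values in some combinations. Its Pearson correlation in mouse B at 300 cells per µl was 0.04 with Hist1h1b and 0.10 with Hist1h1e, and in mouse A at 150 cells per µl it was −0.14 with Hist1h1d. The cells of each value share a library, and the correlations are descriptions.

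The other histone genes went with the linker genes to unequal degrees. Hist2h2ac had Pearson correlations with the linker sum of 0.17 and 0.21 in mouse A and of 0.38 and 0.43 in mouse B. Hist1h2bc, in mouse B, had −0.12 and −0.13. H2afz had 0.06 and 0.08 in mouse A against −0.03 and 0.14 in mouse B. The values of H2afx were 0.12 and 0.01 in mouse A against 0.33 and 0.19 in mouse B. Apart from H2afz these genes are sparse in thinned cells, and their weak values are no finding.

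Among 7120 other mouse genes, those most alike in pattern to a linker gene were sought by the mean Pearson correlation of log-scaled levels over the 4 combinations of class and library, in cells with at least 2000 UMIs. The highest mean correlation was 0.54, between Hist1h1e (mm10_ENSMUSG00000051627) and mm10_ENSMUSG00000038943, which also had 0.53 with Hist1h1b (mm10_ENSMUSG00000058773). The gene most like Hist1h1b was mm10_ENSMUSG00000020914, also at 0.53. The other members carried the identifiers mm10_ENSMUSG00000049539 (Hist1h1a), mm10_ENSMUSG00000036181 (Hist1h1c), mm10_ENSMUSG00000052565 (Hist1h1d), mm10_ENSMUSG00000018102 (Hist1h2bc), mm10_ENSMUSG00000068855 (Hist2h2ac), mm10_ENSMUSG00000037894 (H2afz) and mm10_ENSMUSG00000049932 (H2afx).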

How the data were processed

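UMI counts were deposited by the authors as a gene by barcode table for each library (2000 and 4000 barcodes, 2398956 and 8707135 UMIs). The study's pipeline was Drop-seq tools, the aligner STAR and the genome hg19 joined with mm10, and the submitters' processing notes name STAR 2.4.2a and Cell Ranger 1.2.0. Reads were downsampled in the study, and whether the deposited counts stem from downsampled reads is not given in the sources used here.

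The 9 genes and all lists were chosen with earlier results of these data known, and all 9 are named. Mouse cells had at least 1000 UMIs, at least 90% of them mouse. No doublet caller was run. Classes were the sides of the first principal component of log-scaled UMIs per 10000, on the 2000 genes of highest normalised dispersion detected in at least 10 cells, the 9 left out (scanpy 1.11.5, Python 3.11.15). The dispersion ranking was settled after a ranking by raw variance had been seen, and the latter is an added alternative. It gave 49 and 367 cells of mouse A and 36 and 318 cells of mouse B, at 150 and 300 cells per µl. CPM has exact Poisson intervals, ratios exact conditional binomial and shares exact Clopper-Pearson intervals, and a count of 0 allows up to 3 counts. Thinning drew UMIs at random without replacement. The classes were compared with edgeR 4.0.16 (R 4.3.3, glmQLFit, TMM, filterByExpr, Benjamini-Hochberg), tested on simulated data, with DESeq2 1.42.0 as an alternative. The edgeR test gives no SE, so the SE was calculated as the absolute log2 difference over the square root of the F statistic of the test. With 1 library per concentration, no test was made between concentrations. Genes most alike were to be named as 3 per member, of which 2 identifiers are printed, as mouse names were not used here. Cell cycle scores, lists of other histone genes, markers and promoters needed such names and were not analysed here.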

Additional observations from a re-analysis of the deposited data

Results flagged for a closer look

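H2afx differed in direction between the mouse classes: its log2 ratio of 300 over 150 cells per µl was 0.62 in mouse A and −0.28 in mouse B. The interval in mouse B reached 0.02, and the difference between the classes was not tested, since each concentration had 1 library. In cells with at least 10000 UMIs the values were 0.71 and −0.22.

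Hist1h1e likewise had ratios of opposite sign, 0.014 in mouse A and −0.67 in mouse B, which were not tested against each other. The value in mouse A lay within counting error of 0 and was −0.11 with TMM scaling, so that both classes then had a value below 0.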

How the results depend on the processing

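The number of genes called between the classes fell from 5074 to 1755 with DESeq2, and the number of histone genes called fell from 8 to 5 without the library block. Neither cause was tested. Counts stayed within 1.5 times with RLE normalization, no filter, at least 2000 UMIs, 95% purity and classes from raw variance, the last added after seeing the data. No fitted direction of a histone gene was reversed under these settings. Single libraries were compared with the fit without a test (leave-one-out), as ratios of CPM without the TMM scaling of the fit. For 8 of 9 genes in the library of lower concentration, and 7 in the other, the class difference lay beyond the SE of the fit. In the same order, Hist1h1d was at 1.06 and 0.23 and H2afx at 1.95 and 1.05. Hist1h1e changed sign, at 0.46 and −0.23. H2afz stayed within the SE in both, at −0.51 and −0.56. The count of histone genes over 2-fold lower at 300 cells per µl was 1 in mouse A under all 6 alternatives (TMM, cells weighted equally, at least 2000 or 500 UMIs, 95% purity, thinning), and 3 or 4 in mouse B. There Hist1h1d joined with TMM scaling (−1.08) and thinning (−1.13), and with equal weights it took the place of Hist1h1b (−1.01 and −0.96). For Hist2h2ac the log2 ratio lay between −1.87 and −1.67 in mouse A and between −2.43 and −2.09 in mouse B. Thinning to 2000 UMIs changed the sign of 4 ratios in mouse A: Hist1h1d (−0.12 to 0.99), Hist1h1a (−0.07 to 0.29), Hist1h1c (−0.16 to 0.22) and Hist1h1e (0.014 to −0.05). At 150 cells per µl the thinned cells with a UMI of these genes were 5, 8, 6 and 29 of 43, in the same order. The first 3 of these ratios thus rest on few UMIs. Shares of cells with a UMI moved beyond their interval in 32 of 36 cases unthinned and in 18 at 1000 UMIs. Comparisons of cells by G2/M and S phase scores were not run.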
